A study of Sus scrofa with 9 samples.

Results

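Pronuclear (PN) embryos were compared with metaphase II (MII) oocytes to describe which maternal RNAs were kept, lost or gained in the hours after fertilization. The comparison took the 6 libraries that the labels give as MII oocyte or PN embryo, 3 per group, of the 9 libraries of the series. The other 3 libraries are of mature sperm and entered no fit. The oocytes were matured in vitro from follicles of postpubertal Long White gilts and were freed of cumulus cells, and the embryos were taken 18 h after the start of in vitro fertilization (IVF) with sperm of Landrace boars. Neither group was treated otherwise. Each RNA came from pooled cells, so that embryos that were not fertilized, or that had more than 1 sperm, cannot be told apart from the others within a library. Nothing in the labels says that the libraries of a group came from separate collections, and the p-values below then measure only the spread between these libraries. In bulk RNA, fewer cells of a kind and less RNA per cell cannot be told apart.

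A fully grown oocyte transcribes little or nothing and carries a store of maternal RNA through meiosis. At fertilization, the egg leaves its arrest at metaphase of the second meiotic division, completes meiosis and forms a pronucleus from the chromosomes of each parent. Maternal RNA is then translated and degraded in a controlled order, and the embryo's own genome becomes fully active only after some cleavage divisions. A circular RNA (circRNA) is made by back-splicing, in which the end of an exon is joined back to an exon start upstream of it, and its closed form makes it resistant to exonucleases.

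Read counts were given for 70688 mRNA loci and for 3071 circRNAs, which came from 1727 host genes, and 60759 lncRNA transcripts were given by their coverage, the mean read depth along a transcript. An MII oocyte library had from 101252749 to 103318452 mRNA counts and a PN embryo library from 91924597 to 94137406. CircRNA counts summed to between 22809 and 24217 in MII oocytes and between 23056 and 26200 in PN embryos, and 3 counts, the floor used for a value of 0, were between 0.0115% and 0.0132% of these totals. This floor covers counting error only. Most mRNA loci carry only an assembly number (prefix MSTRG). For 23571 of them the lncRNA table lists a transcript of the same locus under 1 gene symbol, and that symbol is used here. It can name the gene itself or a gene that the transcript overlaps or lies within, so that "the SLC44A5 locus" means a locus listed under that symbol and not the coding mRNA of the gene.

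The labelled cell types could be checked against few of their defining markers. Of 18 oocyte markers, 13 (ZP1, GDF9, BMP15, ZAR1 and MOS among them) were not above 0 under their symbols, ZP2, ZP3 and NLRP5 were found only as circRNAs, and BTG4 was found in 1 library. OOEP, a component of the subcortical maternal complex, had 15.8, 19.5 and 17.7 counts per 1e+06 counts (CPM) in MII oocytes and 8.94, 11.2 and 5.23 CPM in PN embryos. Of 12 cumulus and granulosa cell markers, 8 (HAS2, PTX3 and TNFAIP6 among them) were not above 0 under their symbols, and no locus listed under CYP19A1, FSHR, VCAN or AMH exceeded 6.74 CPM in an oocyte or embryo library. CYP19A1, FSHR and VCAN are each split over several loci, so that this highest value is per locus and not a total for a gene. Of 13 sperm markers, 9 were not above 0 under their symbols. PRM1, the protamine that packs sperm DNA, had 0.0492, 0 and 0.267 CPM in MII oocytes and 0.707, 0.48 and 0.924 CPM in PN embryos, against a mean of 4810 CPM in sperm. The groups did not overlap, as at 16.6% of all tested loci and 2 of 12 of the sperm list per library total. It did not differ at an adjusted p under 0.05 by edgeR. The IZUMO1 locus, at 0 in sperm, had 1.7, 6.58 and 0.444 CPM and then 0, 0 and 7.87 CPM. LDHC and ZPBP were found only as circRNAs. CircRNA176 of LDHC (sperm mean 522 counts) had 15, 0 and 7 counts and then 5, 116 and 7, which overlapped. CircRNA1636 of ZPBP (sperm mean 342) had 0, 0 and 0 counts and then 1, 0 and 1. CircRNA1170 and circRNA1847 of LDHC, at 0 in sperm, reached 66 counts in MII oocyte replicate 3 and 39 in PN embryo replicate 2.

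One pair of libraries shared rare features more often than any other. Of the mRNA loci that were above 0 in at most 2 given libraries of the 6 and reached 100 counts there, MII oocyte replicate 3 and PN embryo replicate 3 shared 1693 of 4691 (36.1%), while the other 14 pairs of libraries shared between 7.72% and 14.3%. For lncRNA transcripts that reached a coverage of 20, the 2 libraries shared 34.4%, against 7.39% to 13.5% in the other pairs, and for circRNAs that reached 20 counts they shared 28.9%, against 3.76% to 11.6%. In the lower of these 2 libraries, the shared mRNA loci had a median of 2.72% of their counts in the higher, and the lower library was PN embryo replicate 3 for 1144 loci and MII oocyte replicate 3 for 549. The cause of this sharing was not tested. It concerns values near 0 in either library, and the counts of features below are also given with both libraries numbered 3 left out, which leaves 2 libraries per group.

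**Figure D1:**
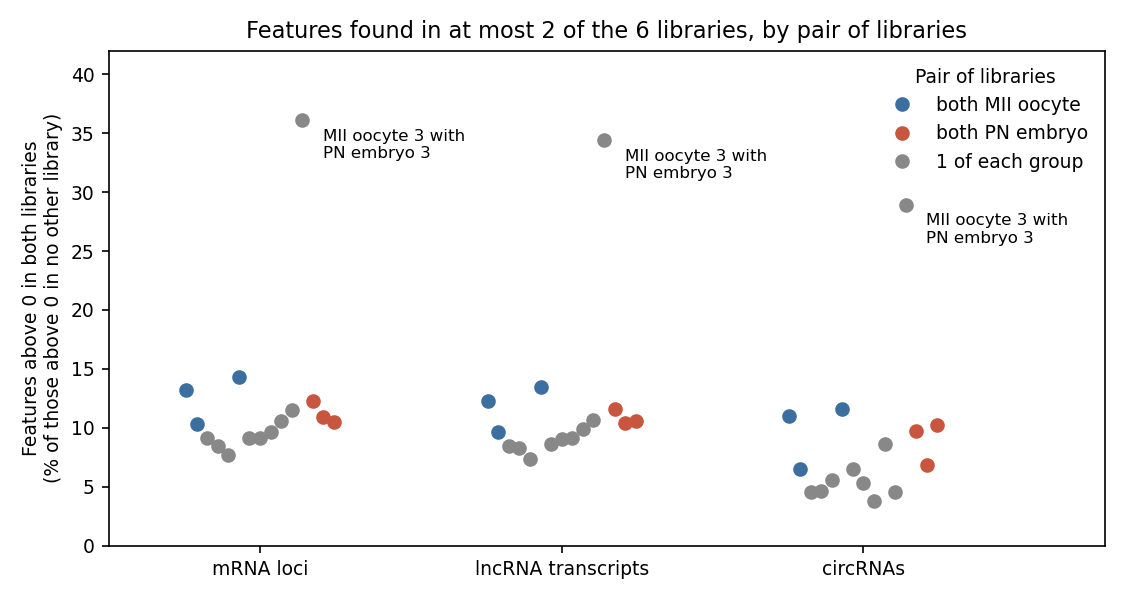
Share of rare features found in both libraries of a pair, in percent, for each of the 15 pairs of libraries and each table. Points are pairs of libraries, coloured by whether both libraries are of the same group, and the pair of MII oocyte replicate 3 and PN embryo replicate 3 lies at 36.1%, 34.4% and 28.9%, above all other pairs.

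Features at a sperm value of at least 100 counts that appeared in exactly 1 of the 6 libraries showed a second pattern. They numbered 231, 156 and 663 mRNA loci in the MII oocyte libraries and 665, 517 and 969 in the PN embryo libraries, so that MII oocyte replicate 3 lay among the PN embryos. In MII oocyte replicate 3 and the PN embryo libraries their median was between 0.205% and 0.214% of the highest sperm count, and in MII oocyte replicates 1 and 2 it was 2.04% and 3.07%. Whether these counts came from sperm RNA, from reads assigned to the wrong library or from another source was not tested.

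Most mRNA counts were on loci kept in every library. With detection set at 1 CPM, 13354 mRNA loci were detected in all 3 MII oocyte libraries, and 11221 of these (84%) were also detected in all 3 PN embryo libraries. These kept loci held between 96.6% and 96.7% of all counts in every library of both groups. A locus was called lost if it was detected in all MII oocyte libraries and had 0 counts in all PN embryo libraries, and gained in the reverse case. Only 20 loci were lost and 5 gained, none of them at 5 CPM or more in all libraries of its group, and the lost loci held no more than 0.00601% of the counts of an MII oocyte library. At any value above 0, 437 loci were lost and 247 gained, and without both libraries numbered 3 the numbers at 1 CPM were 326 and 157.

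Absence from a single library says little in these data. Between 2 MII oocyte libraries, between 19.2% and 21.9% of the loci detected in one had 0 counts in the other, and between 2 PN embryo libraries the share was between 18.7% and 20.8%. From an MII oocyte to a PN embryo library it was between 14.2% and 23.9%, with a median of 23.6%, and from a PN embryo to an MII oocyte library between 15.4% and 19.7%. The lowest value in each direction belonged to the pair of replicates 3. For circRNAs, the median share at 0 in the other library was 75.7% within MII oocytes and 74.4% within PN embryos. It was 79% from MII oocytes to PN embryos and 76.9% from PN embryos to MII oocytes.

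Fewer features were detected in the PN embryo libraries. An MII oocyte library had 22871, 22948 and 23091 mRNA loci at 1 CPM or more and a PN embryo library 21769, 21585 and 21255, and lncRNA transcripts at a coverage of at least 1 numbered 23041, 23059 and 24305 against 20434, 20006 and 22162. Neither range overlapped. Two-sided exact permutation tests gave p = 0.1 for each, the smallest p that 3 libraries against 3 allow, and 0.18 after adjustment over the 9 summaries tested. The same exact test gave p = 0.1 for the total mRNA count, the summed lncRNA coverage and the share of circRNA counts in the 20 largest circRNAs. Summed lncRNA coverage was 1423560, 1480714 and 1431126 in MII oocytes and lower in PN embryos, at 1345257, 1403175 and 1412962. The limit of a coverage of 1 was not scaled to these totals. How far they gave the lower number of lncRNA transcripts was not tested. Numbers of circRNAs (595, 590 and 675 against 516, 532 and 593) and of their host genes (441, 458 and 490 against 392, 406 and 451) overlapped between the groups (exact permutation p = 0.2). After every library was thinned to the smallest circRNA total in 1 random draw, the mean difference was -81.7 circRNAs, against -73 before, and neither circRNAs nor host genes overlapped between the groups (exact permutation p = 0.1 for each). In the expected numbers over all draws, added after seeing the data, the difference was -79.3 circRNAs, with 586.6 in the lowest MII oocyte library and 580.5 in the highest PN embryo library, and the host genes overlapped.

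Of the lost mRNA loci, 4 had a symbol, and none of these 4 passed the test, with adjusted p between 0.136 (SLCO1A2) and 0.211 (DSCAML1) by edgeR. The SLCO1A2 locus, named for an organic anion transporter, had 181, 455 and 145 counts in MII oocytes and none in PN embryos, at least 77.8-fold lower per library total, against a floor of 3 counts in the PN embryo library with the smallest total. The other bounds were made in the same way, with the floor in the library of smallest total of the group at 0. The BAZ2A locus, named for a subunit of the chromatin-remodelling complex that silences ribosomal RNA genes, had 175, 411 and 151 counts and 0, at least 73.4-fold lower. Of 3 tested loci listed under ADAMTSL1, MSTRG.9201 had a mean of 207.7 ± 126 counts (SD, n = 3) in MII oocytes. Of 7 listed under DSCAML1, MSTRG.70901 had a mean of 186 ± 69 (SD, n = 3). These 2 loci were at 0 in every PN embryo library. Under ADAMTSL1, 1 of the 3 loci had a positive log2 fold change, and under DSCAML1, 2 of the 7. Of the gained loci, 3 had a symbol, and all of them lay at low counts.

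The gained KIF1B locus, named for a kinesin motor, had 0 counts in MII oocytes and 103, 384 and 803 in PN embryos, at least 155-fold higher (edgeR quasi-likelihood test, adjusted p = 0.0387). Its call, here an adjusted p under 0.05 whatever the fold, was lost in 6 of 11 alternatives, each of which left out libraries. Of 2 tested loci listed under GRM5, a glutamate receptor, MSTRG.70227 had 128, 351 and 206 counts in PN embryos, at least 82.4-fold higher. Of 6 listed under CFAP61, a protein of the radial spokes of cilia and flagella, MSTRG.35520 had 92, 149 and 187, at least 51.5-fold higher. Neither of these 2 gained loci passed the test. Under GRM5, 1 locus had a positive and 1 a negative log2 fold change, and under CFAP61, 3 and 3. The 3 gained loci with a symbol were at 0 in sperm. Of all 25 lost or gained loci, 4 passed, which were KIF1B and 3 lost loci with no symbol.

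Changes in level were mostly small. Of 26611 mRNA loci tested, 46 (0.173%) changed at least 2-fold with an adjusted p under 0.05, 23 in each direction. At an adjusted p under 0.05 and any fold, 223 loci (0.838%) differed, 121 higher and 102 lower in PN embryos, with a median absolute log2 fold change of 0.70. Without both libraries numbered 3, 8 loci passed, 7 of them among the 46, and with DESeq2 all 46 passed among 779. Without MII oocyte replicate 1, 2 or 3, 23, 29 and 22 loci passed, and without PN embryo replicate 3, 89. The unscaled counts of the groups did not overlap at 4650 of the tested loci (17.5%), 1525 higher and 3125 lower in PN embryos, whose total counts were smaller. Divided by the library total, they did not overlap at 4416 loci (16.6%), 2116 higher and 2300 lower. This and the other non-overlap counts per total were added after seeing the data.

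How often a difference was found depended on the level of the locus. Among the 101 loci with a mean of 1000 CPM or more, which held 23.7% of all counts, 17 (16.8%) differed at an adjusted p under 0.05, and none of these reached 2-fold. From 100 to 1000 CPM, 145 of 2014 loci (7.2%) differed. From 1 to 5 CPM, 5 of 9540 tested loci (0.0524%) did. The median SD between replicates on the log2(CPM + 1) scale was 0.0495 in MII oocytes and 0.0618 in PN embryos at 1000 CPM or more, while the median absolute difference between the group means was 0.142, and at 1 to 5 CPM the SDs of 0.712 and 0.871 exceeded the difference of 0.535. Rank correlations across these abundant loci were between 0.966 and 0.991 within groups and between 0.864 and 0.893 between groups. They are across loci, which are not independent replicates.

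**Figure D2:**
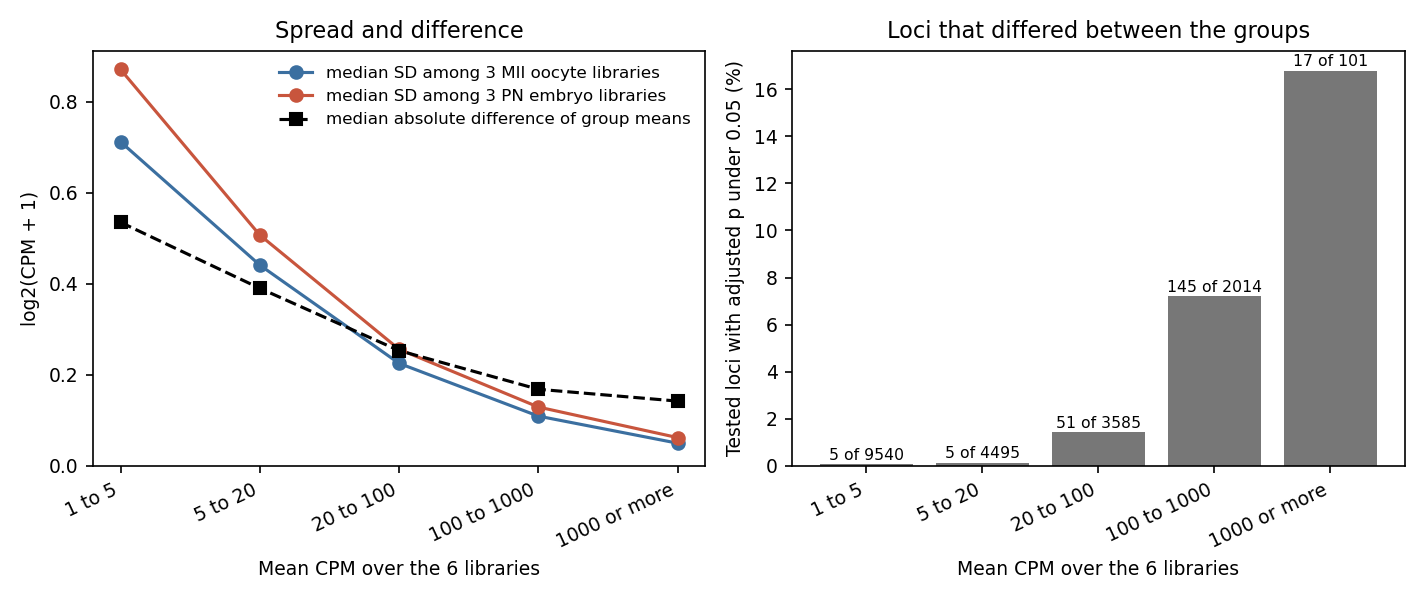
Left, median SD between the 3 libraries of each group and median absolute difference of the group means, in log2(CPM + 1), for mRNA loci binned by mean CPM. Right, percent of tested loci with an adjusted p under 0.05 in each bin, with counts above the bars, which rises from 0.0524% to 16.8%.

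The locus with the most counts in the table, which has no symbol, had 2586724, 2433810 and 2536514 counts in MII oocytes and 1469560, 1463544 and 1672283 in PN embryos. Its share fell from 2.47% ± 0.0999 to 1.65% ± 0.115 of all counts (SD, n = 3 each), log2 fold change -0.59 (SE 0.0566, adjusted p = 0.000749, edgeR). It was singled out after its values were seen.

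Among the 46 loci past both thresholds, 11 had a gene name, 6 higher and 5 lower. Every sperm library had more counts than any oocyte or embryo library at 3 of the 23 loci that rose, at 0 of the 23 that fell and at 497 of the 26611 tested (1.87%). Of the named loci, MAPK10 lies on chromosome 8 (132445818 to 132751575 in Sscrofa11.1, by RefSeq) and encodes the stress kinase JNK3. Of 2 tested loci listed under it, MSTRG.69172 had 23, 36 and 227 counts in MII oocytes and 3877, 3107 and 5080 in PN embryos. Its log2 fold change was 5.52 (standard error, SE, 0.744, adjusted p = 0.00341, edgeR). The highest MII oocyte count was in replicate 3, which shares rare features with PN embryo replicate 3. The call held under all 12 alternatives that gave a value, with log2 fold changes from 5.04 to 7.22. Sperm libraries had 351335, 384949 and 323246 counts at this locus, and the PN embryo counts were 1.1%, 0.88% and 1.44% of their mean and the MII oocyte counts 0.00651%, 0.0102% and 0.0643%. What part of the PN embryo counts came from sperm RNA, or from sperm reads assigned to another library, was not tested.

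A locus listed as the gene ENSSSCG00000044467 had 6823, 6025 and 6556 counts in MII oocytes and 16196, 14899 and 13415 in PN embryos (log2 fold change 1.32, SE 0.129, adjusted p = 0.000749, edgeR), and its call held under all 13 alternatives. The SLC44A5 locus (chromosome 6, 137595296 to 138009530), named for a choline transporter-like protein, had 6133, 6536 and 5327 counts in MII oocytes and 13046, 12155 and 11221 in PN embryos. Its log2 fold change was 1.14 (SE 0.136, adjusted p = 0.00169, edgeR). Its call was lost in 1 of 13 alternatives, without both libraries numbered 3. At both loci the groups did not overlap, and sperm had at most 15 counts. Each has 1 transcript in the lncRNA table, which passed there too, but those coverages come from the same reads. Both names have 5 tested loci, of which the other 4 did not differ. Under ENSSSCG00000044467, 3 of these 4 had a positive and 1 a negative log2 fold change (smallest adjusted p = 0.712, edgeR). Under SLC44A5, 2 were positive and 2 negative (smallest adjusted p = 0.535, edgeR).

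The MAP3K3 locus (chromosome 12, 15228979 to 15298784), named for a kinase that activates MAP kinase cascades, rose from 3441, 2827 and 2069 to 6796, 5325 and 7825 counts (log2 fold change 1.38, adjusted p = 0.0129, edgeR). This call was lost in 2 of 13 alternatives, both of which left out MII oocyte replicate 3, with a highest adjusted p of 0.261. Sperm had 0, 5 and 4 counts there. The SMIM7 locus, named for a small membrane protein, rose from 486, 743 and 552 to 2084, 1484 and 2787 counts (log2 fold change 1.96, adjusted p = 0.0416, edgeR), and this call was lost in 6 of 12 alternatives. Sperm had 1312, 2760 and 2129 counts at this locus.

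Of the named loci that fell, CNIH4 held its call under all 13 alternatives. This locus (chromosome 10, 12688833 to 12705426) is named for a cornichon protein that helps receptors leave the endoplasmic reticulum. It had 32806, 30666 and 25921 counts in MII oocytes and 11443, 9994 and 14639 in PN embryos, log2 fold change -1.18 (SE 0.147, adjusted p = 0.0022, edgeR). The SLC6A20 locus (chromosome 13, 28897831 to 28945191), named for a transporter of proline and other imino acids, had 4707, 4636 and 3135 counts in MII oocytes and 1458, 824 and 614 in PN embryos. Its log2 fold change was -1.99 (SE 0.339, adjusted p = 0.0157, edgeR), and its call was lost in 3 of 13 alternatives. A second locus under this symbol had a log2 fold change of -0.24 (MSTRG.18991, adjusted p = 0.263, edgeR).

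KMT5C is a methyltransferase that adds methyl groups to lysine 20 of histone H4, and its locus (chromosome 6, 59517058 to 59524551) fell from 8476, 6976 and 7829 to 2108, 2146 and 4402 counts (log2 fold change -1.30, adjusted p = 0.0415, edgeR). PLIN2 coats lipid droplets, which are abundant in porcine oocytes, and its locus (chromosome 1, 203683867 to 203709277) fell from 7807, 6336 and 4815 to 2301, 3205 and 2737 counts (log2 fold change -1.08, adjusted p = 0.0378, edgeR). NUDCD3, a co-chaperone that acts on dynein, fell at its locus from 12144, 9181 and 7969 to 2742, 4942 and 4767 counts (log2 fold change -1.11, adjusted p = 0.0437, edgeR). None of these groups of libraries overlapped, but the calls were lost in 6, 5 and 5 of 13 alternatives, respectively, each time where libraries were left out.

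Of the 35 loci past both thresholds with no name, 2 in each direction are given. MSTRG.36263 rose from 33108, 33302 and 36544 to 64996, 59894 and 65331 counts (log2 fold change 1.01, adjusted p = 0.000749, edgeR), and MSTRG.73924 from 306, 386 and 349 to 2717, 2881 and 3018 (log2 fold change 3.17, adjusted p = 0.000845, edgeR). At MSTRG.73924 sperm had 395727, 446401 and 407687 counts, and the PN embryo counts were 0.652%, 0.692% and 0.724% of their mean and the MII oocyte counts 0.0735%, 0.0927% and 0.0838%. The same sources were not tested here, and features found in sperm and in only 1 PN embryo library had medians between 0.205% and 0.214% of the highest sperm count, as given above. MSTRG.13424 fell from 2530, 3738 and 2891 to 365, 570 and 462 counts (log2 fold change -2.59, adjusted p = 0.00357, edgeR), and MSTRG.10772 from 15100, 15171 and 14218 to 5609, 7880 and 5716 (log2 fold change -1.09, adjusted p = 0.00357, edgeR). Without both libraries numbered 3, MSTRG.36263 kept an adjusted p under 0.05, while the calls of MSTRG.73924, MSTRG.13424 and MSTRG.10772 were lost (adjusted p = 0.078, 0.129 and 0.17, edgeR).

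**Figure D3:**
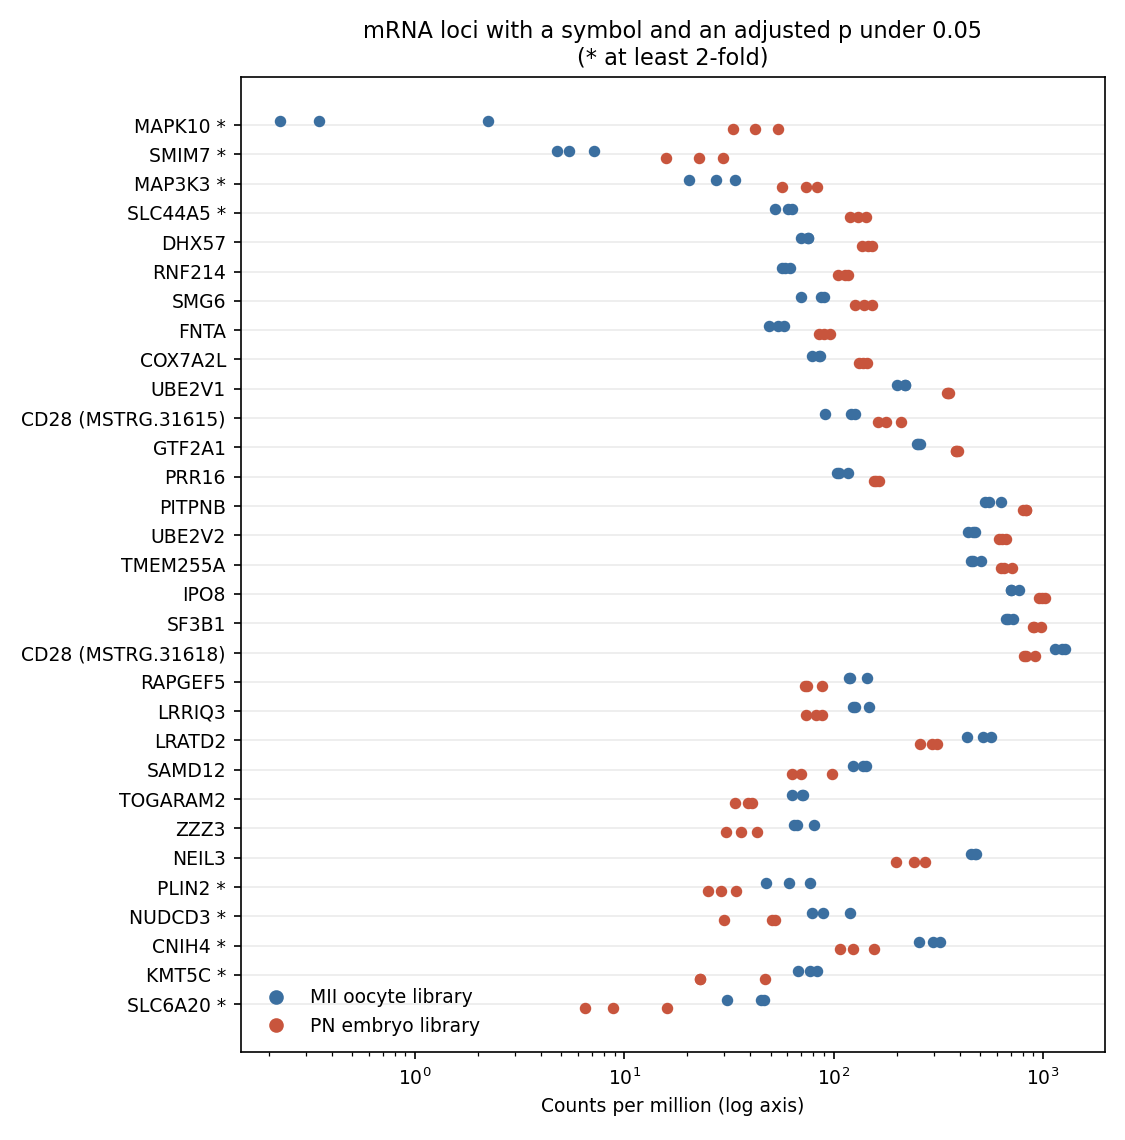
CPM (log axis) in each library for the mRNA loci with a gene symbol and an adjusted p under 0.05, with MII oocytes and PN embryos in different colours. An asterisk marks loci that also changed at least 2-fold, KIF1B is left out because it was at 0 in MII oocytes, and within each locus shown the groups do not overlap.

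A further 22 loci with a symbol differed at an adjusted p under 0.05 but by less than 2-fold, 14 higher and 8 lower, and they were added to the text after their values were seen. All 22 calls were lost without both libraries numbered 3. Of the loci named below, NEIL3, DHX57, UBE2V1 and RNF214 lost their call there alone. The GTF2A1 call was lost in 2 of 13 alternatives, those of UBE2V2 and COX7A2L in 4, and those of the CD28 loci in 2 and 6. Those of SMG6, SF3B1, ZZZ3 and IPO8 were lost in 5, and that of TOGARAM2 in 6, each time where libraries were left out. The 33 named loci with an adjusted p under 0.05 stand under 32 names, of which 14 have more than 1 tested locus, and only under CD28 did a second locus differ, in the opposite direction (log2 fold changes -0.52 and 0.68). Among the 22 loci under 2-fold, NEIL3, a DNA glycosylase that removes oxidized bases and unhooks crosslinked strands, fell the most. Its locus (chromosome 15, 39416073 to 39632313) fell from 46203, 48900 and 48244 to 22268, 18552 and 25651 counts, a log2 fold change of -0.98 (adjusted p = 0.00176, edgeR). The ZZZ3 locus, named for a subunit of a histone acetyltransferase complex, fell by 0.96 on the log2 scale (adjusted p = 0.0275, edgeR), and the TOGARAM2 locus, named for a protein with tubulin-binding domains, fell by 0.86 (adjusted p = 0.0305, edgeR). The other tested locus under TOGARAM2 had a positive log2 fold change (adjusted p = 0.891, edgeR).

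Of those that rose, the DHX57 locus, named for a putative RNA helicase, rose from 7657, 7836 and 7074 to 14056, 13732 and 12858 counts (log2 fold change 0.97, adjusted p = 0.0022, edgeR). It is 1 of 5 tested loci under this symbol. Of the other 4, 2 had positive and 2 negative log2 fold changes (smallest adjusted p = 0.401, edgeR). SMG6 is the endonuclease of nonsense-mediated decay, and 1 of 11 tested loci listed under it (MSTRG.17557, with the most counts) rose from 8823, 7203 and 9084 to 14012, 11846 and 13059 counts (log2 fold change 0.76, adjusted p = 0.0224, edgeR). Of the other 10, 6 had positive and 4 negative log2 fold changes, with a smallest adjusted p of 0.737. SF3B1 is a core subunit of the U2 snRNP of the spliceosome, and its locus rose by a log2 fold change of 0.42 (adjusted p = 0.021, edgeR). GTF2A1, the large subunit of the general transcription factor TFIIA, had 25789, 25757 and 26213 counts in MII oocytes and 36048, 36020 and 36009 in PN embryos (log2 fold change 0.60, adjusted p = 0.00639, edgeR).

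The loci of the ubiquitin-conjugating enzyme variants UBE2V1 and UBE2V2, which pair with UBE2N to build chains linked through lysine 63, both rose. UBE2V1 had 22164, 22548 and 20278 counts in MII oocytes and 32721, 32669 and 33056 in PN embryos (log2 fold change 0.72, adjusted p = 0.00256, edgeR). A second tested locus under UBE2V1 also had a positive log2 fold change (adjusted p = 0.921, edgeR). UBE2V2 had 47902, 47707 and 44378 counts and 56582, 59883 and 62303 (log2 fold change 0.48, adjusted p = 0.0171, edgeR). They have similar sequences, and how reads shared by near-identical copies were counted is not given in the sources used here. The loci of the ubiquitin ligase RNF214 (log2 fold change 0.91, adjusted p = 0.00627), the importin IPO8 (0.44, adjusted p = 0.0155) and the respiratory supercomplex factor COX7A2L (0.72, adjusted p = 0.0157) also rose by edgeR's test.

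Gene lists were read by their counts. Of the 80 genes listed for maternal RNA decay and translation control, 38 loci of 21 genes were tested, 11 of them under SMG6, and 1 SMG6 locus alone differed at an adjusted p under 0.05. Their median log2 fold change was 0.106, against -0.00332 over all tested loci. None of the 44 loci tested from the ubiquitin and protein turnover list (median 0.304), the 46 from the cell cycle, spindle and centrosome list (median 0.176), the 77 from the chromatin and zygotic genome activation list (median 0.114) or the 11 from the oocyte-specific and maternal effect list (median -1.07) differed at that threshold, against 0.838% of all loci. At an unadjusted p under 0.05 there were 3, 2, 5 and 2 of them, in that order, and 2349 of all 26611 tested loci (8.83%). The 11 loci of the oocyte list stand under 4 genes, and most are listed under ACCSL, so that their median is mostly of this symbol. Of the sperm and spermatid list (12 loci) and the cumulus and granulosa list (21 loci) none differed either, with medians of 0.0302 and -0.0872. UBE2V1, UBE2V2 and RNF214 are not on the ubiquitin list, and KMT5C and ZZZ3 are not on the chromatin list.

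In the chromatin list, 1 of 2 tested loci listed under ARID2, a subunit of the PBAF remodelling complex (MSTRG.54566, the other overlapped between the groups), had 43138, 35843 and 45579 counts in MII oocytes and 52151, 50082 and 50217 in PN embryos (log2 fold change 0.41, adjusted p = 0.0899, edgeR). Of 3 tested loci listed under DNMT3A, a de novo DNA methyltransferase, MSTRG.47725 had 313, 168 and 19 counts and then 815, 702 and 573 (adjusted p = 0.532, edgeR). The other two overlapped between the groups, and MSTRG.47727, with the most counts, had 1824, 2483 and 2213 and then 3112, 2341 and 1981 (log2 fold change 0.31, adjusted p = 0.928, edgeR). In the oocyte list, the NLRP4 locus had 699, 341 and 283 counts and then 1698, 1360 and 1262 (adjusted p = 0.151, edgeR), while OOEP had 1603, 2013 and 1797 counts and then 822, 1054 and 492 (adjusted p = 0.388, edgeR). These 4 loci were picked from those that did not overlap. Such loci numbered 9 of the 77 in the chromatin list and 4 of the 11 in the oocyte list. The other such loci of the chromatin list are not given here. ARID2 and DNMT3A, both higher in PN embryos, thus do not show the direction of that list. Each of the 4 picked loci was without overlap between the groups in unscaled counts, as were 17.5% of all tested loci, and also in counts per library total, as were 16.6%. In the oocyte list, MSTRG.39252 and MSTRG.39258, both listed under ACCSL, also did not overlap on either scale.

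Among lncRNA-table transcripts, 12 of 19810 (0.0606%) passed both thresholds, 6 in each direction, and 21 (0.106%) had an adjusted p under 0.05 at any fold (limma on log2(coverage + 1)). At an unadjusted p under 0.05 there were 1472 (7.43%). Coverage was not scaled between libraries in this fit, and the median log2 fold change of all tested transcripts was -0.216. This median was -0.012 with quantile normalization and -0.17 with scaling to the summed coverage. All 12 passed with either scaling, among 17 and 13. The groups did not overlap at 2611 transcripts (13.2%) as deposited, 1059 higher and 1552 lower in PN embryos. Per summed coverage they did not overlap at 2604 (13.1%), 1137 higher and 1467 lower. Without both libraries numbered 3, 2 passed. Without MII oocyte replicate 1, 2 or 3, 1, 2 and 4 transcripts passed. With the limit of detection at a coverage of 1, 6385 transcripts were kept, which held between 61.2% and 64.0% of the summed coverage of a library, and 246 were lost and 123 gained. None of the lost or gained transcripts passed the test.

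Both transcripts of 1 locus passed in opposite directions. The lncRNA table lists 2 transcripts under MAFF (chromosome 5, 9683651 to 9696128), a small MAF transcription factor. MSTRG.52365.1 rose from coverages of 103.63, 79.51 and 114.85 in MII oocytes to 396.82, 453.0 and 500.15 in PN embryos, log2 fold change 2.18 (SE 0.309, adjusted p = 0.0257, limma). MSTRG.52365.2 fell from 349.62, 260.06 and 244.25 to 29.34, 41.57 and 49.44, log2 fold change -2.81 (SE 0.437, adjusted p = 0.0384, limma). The transcript with the higher coverage was thus a different one in each group and in every library of it. Counts on the whole locus were 1289, 966 and 1019 in MII oocytes and 1196, 1388 and 1543 in PN embryos, log2 fold change 0.46 (SE 0.385, adjusted p = 0.918, edgeR). Sperm had coverages of 0, 154.7 and 35.9 for the first. The direction of both transcripts held under all 12 alternatives, but the calls were lost in 7 and 9 of them, with adjusted p up to 0.111 and 0.246.

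At ENSSSCG00000041188, 1 of 11 listed transcripts passed. Transcript MSTRG.26344.3 had coverages of 657.54, 459.88 and 457.51 in MII oocytes and 2.01, 0 and 0 in PN embryos (log2 fold change -8.49, SE 0.882, adjusted p = 0.00386, limma), and its call was lost in 4 of 12 alternatives. MSTRG.26344.2 was at 0 in all MII oocyte libraries and had 0, 583.34 and 477.89 in PN embryos, too few libraries to be tested. MSTRG.26344.1 had 0, 52.41 and 0 in MII oocytes and 739.78, 79.35 and 0 in PN embryos (adjusted p = 0.817, limma). Counts on the locus were 20385, 22519 and 19838 in MII oocytes and 20688, 24622 and 23246 in PN embryos (log2 fold change 0.25, adjusted p = 0.482, edgeR).

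At ENSSSCG00000042779, transcript MSTRG.252.3 fell from 173.17, 252.21 and 209.29 to 0.46, 6.6 and 4.87 (log2 fold change -5.71, adjusted p = 0.0416, limma), while another transcript of the locus, MSTRG.252.2, had 143.11, 150.59 and 185.22 and then 128.44, 47.93 and 209.84. The call of MSTRG.252.3 was lost in 6 of 12 alternatives, with adjusted p up to 0.412. The locus had 2942, 3817 and 4445 counts and then 1757, 1512 and 2561 (log2 fold change -0.82, adjusted p = 0.297, edgeR). Coverage was divided among overlapping transcripts when they were assembled, so that these are differences between assembled transcripts. How far the assembly itself gave them was not tested.

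Among transcripts without a name, MSTRG.52605.1 rose from coverages of 0, 0 and 1.77 to 243.15, 202.17 and 206.09 (adjusted p = 0.0306, limma), and MSTRG.68628.1 from 250.55, 341.57 and 486.15 to 910.19, 1154.61 and 1020.34 (log2 fold change 1.56, adjusted p = 0.0384, limma). MSTRG.19692.1 fell from 1967.84, 2236.16 and 1953.39 to 858.25, 1051.89 and 1038.77 (log2 fold change -1.06, adjusted p = 0.011, limma), and the transcript of MSTRG.13424 fell with its locus. The groups did not overlap for either that rose, but their calls were lost in 6 of 11 and 7 of 12 alternatives, among them a pseudocount of 0.1. The calls of MSTRG.19692.1 and MSTRG.13424.1 were lost in 4 and 5 of 12, all of which left out libraries. The value of 1.77 in MSTRG.52605.1 was in MII oocyte replicate 3.

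**Figure D4:**
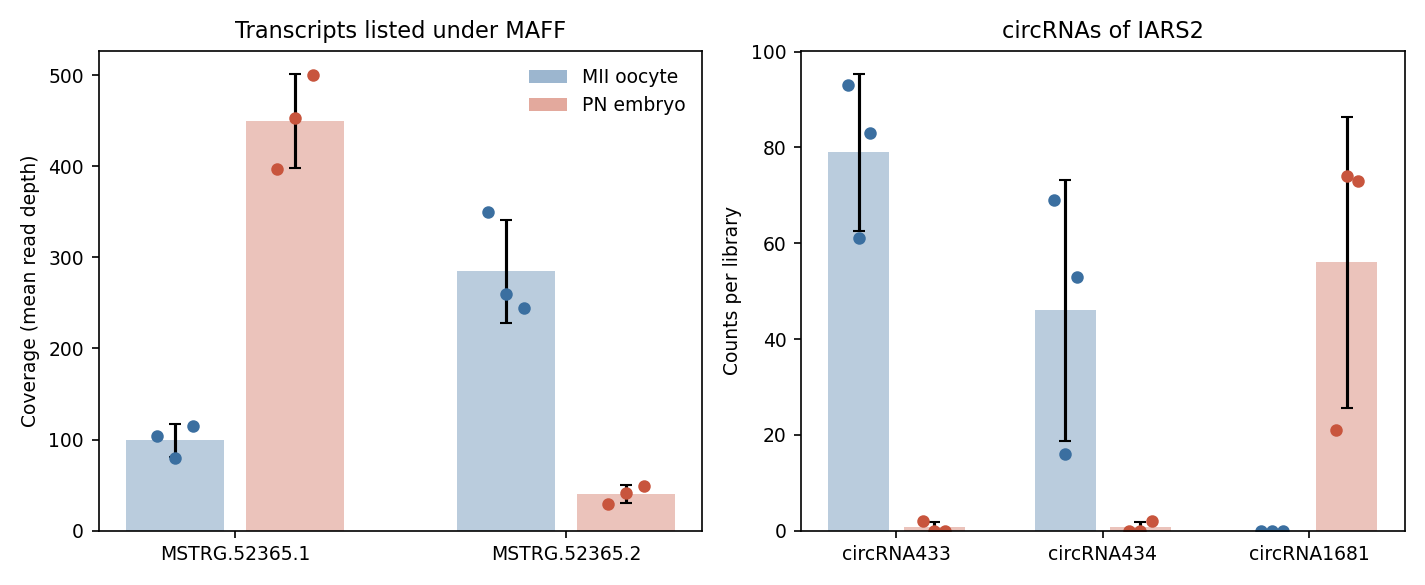
Left, coverage of the 2 transcripts listed under MAFF, and right, counts of the 3 circRNAs of IARS2 that were found in at least 3 libraries. Points are libraries, bars are means and error bars are SDs (n = 3), and in both genes one form is high in MII oocytes where another is high in PN embryos.

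Single circRNAs varied so much between libraries that few comparisons could be made. Of 2310 circRNAs above 0 in at least 1 of the 6 libraries, 270 were above 0 in at least 3 and were tested, and 0 (0%) differed at an adjusted p under 0.05 by edgeR's quasi-likelihood test. At an unadjusted p under 0.05 there were 16 (5.93%), and with DESeq2 1 passed both thresholds. The unscaled counts of the groups did not overlap at 31 of the 270 (11.5%), and those per library total at 32 (11.9%). Summed by host gene, 335 genes were tested, 1 (0.299%) differed at an adjusted p under 0.05, and 0 passed both thresholds, with 23 (6.87%) at an unadjusted p under 0.05. The groups did not overlap at 39 host genes (11.6%) in unscaled counts and at 42 (12.5%) per total.

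That host gene was UBAP2 (chromosome 10, 32755707 to 32897260), which encodes a ubiquitin-associated protein found in stress granules. Its circRNAs summed to 4837, 4750 and 4935 counts in MII oocytes and 6784, 7095 and 7178 in PN embryos. The libraries of a group lay close together and the groups were far apart, with log2 fold change 0.59 (SE 0.143, adjusted p = 0.0112, edgeR). UBAP2 made up 19.97%, 19.79% and 21.64% of all circRNA counts in MII oocytes and 29.42%, 27.08% and 29.29% in PN embryos. Outside UBAP2, circRNA counts were 19380, 19252 and 17874 in MII oocytes and 16272, 19105 and 17325 in PN embryos. The adjusted p of UBAP2 was above the threshold in 6 of 11 alternatives, among them DESeq2 (0.996) and the fit without both libraries numbered 3. It was as low as 8.05e-20 in another of the fits, by edgeR, so that it depended strongly on the fit. The direction of UBAP2 held in all 11, with log2 fold changes between 0.31 and 0.79.

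Most of these counts were of 1 circRNA. CircRNA450 had 3537, 3592 and 3602 counts in MII oocytes and 5244, 5197 and 5513 in PN embryos, a mean of 3577 ± 35 against 5318 ± 171 (SD, n = 3 each). Its log2 fold change was 0.38 with TMM scaling (unadjusted p = 0.00174, adjusted p = 0.235, edgeR) and 0.52 with scaling to the total count (adjusted p = 1.29e-15, edgeR). Its adjusted p ranged from 1.29e-15 to 0.988 over the fits (edgeR or DESeq2) and was under the threshold in 7 of 11 alternatives. Its log2 fold change lay between 0.23 and 0.64 in all 11. An adjusted p that depends this much on the fit does not measure the strength of the difference, and the reason was not tested. TMM scaling placed the median of all tested circRNAs at -0.234 and scaling to the total count at -0.0775, and the difference of circRNA450 from the median was thus similar in both. CircRNA453, from the same gene, had 1217, 1066 and 1329 counts in MII oocytes and 1522, 1898 and 1553 in PN embryos (log2 fold change 0.26, adjusted p = 0.996, edgeR), and its groups overlapped with TMM scaling. No other circRNA of UBAP2 reached 100 counts in a library.

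The 31 circRNAs above 0 in all 6 libraries held between 34.1% and 36.5% of the circRNA counts in MII oocytes and between 39.5% and 41.7% in PN embryos. They came from 24 host genes, none differed at the threshold, and the unscaled counts of the groups did not overlap for 7 of these circRNAs, against 11.5% of all tested circRNAs. Per library total the number was also 7, but circRNA392 of NAALADL2 now overlapped and circRNA356 of PPA2 did not, and with TMM scaling it was 6. CENPJ, a centriole assembly protein also known as CPAP, gave circRNA415 with 632, 649 and 502 counts in MII oocytes and 371, 218 and 335 in PN embryos (log2 fold change -1.13, adjusted p = 0.813, edgeR). AHI1, a protein of the ciliary transition zone, gave circRNA206 with 287, 570 and 455 counts and then 329, 622 and 234. NBAS, which acts in transport from the Golgi to the endoplasmic reticulum, gave circRNA159 with 626, 629 and 308 counts and then 215, 324 and 391.

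COG5, a subunit of the Golgi tethering complex COG, gave 2 of the kept circRNAs. CircRNA316 had 39, 40 and 47 counts in MII oocytes and 21, 19 and 18 in PN embryos without overlap, and circRNA321 had 203, 142 and 189 and then 193, 324 and 278 (adjusted p = 0.996 for both, edgeR). SMAD4, the shared mediator of TGF-β and BMP signals, gave circRNA221 with 45, 258 and 156 counts and then 80, 28 and 269. PAN3, the regulatory subunit of a deadenylase, gave circRNA419 with 2, 5 and 66 counts and then 3, 4 and 39, so that its highest value in each group was in replicate 3.

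**Figure D5:**
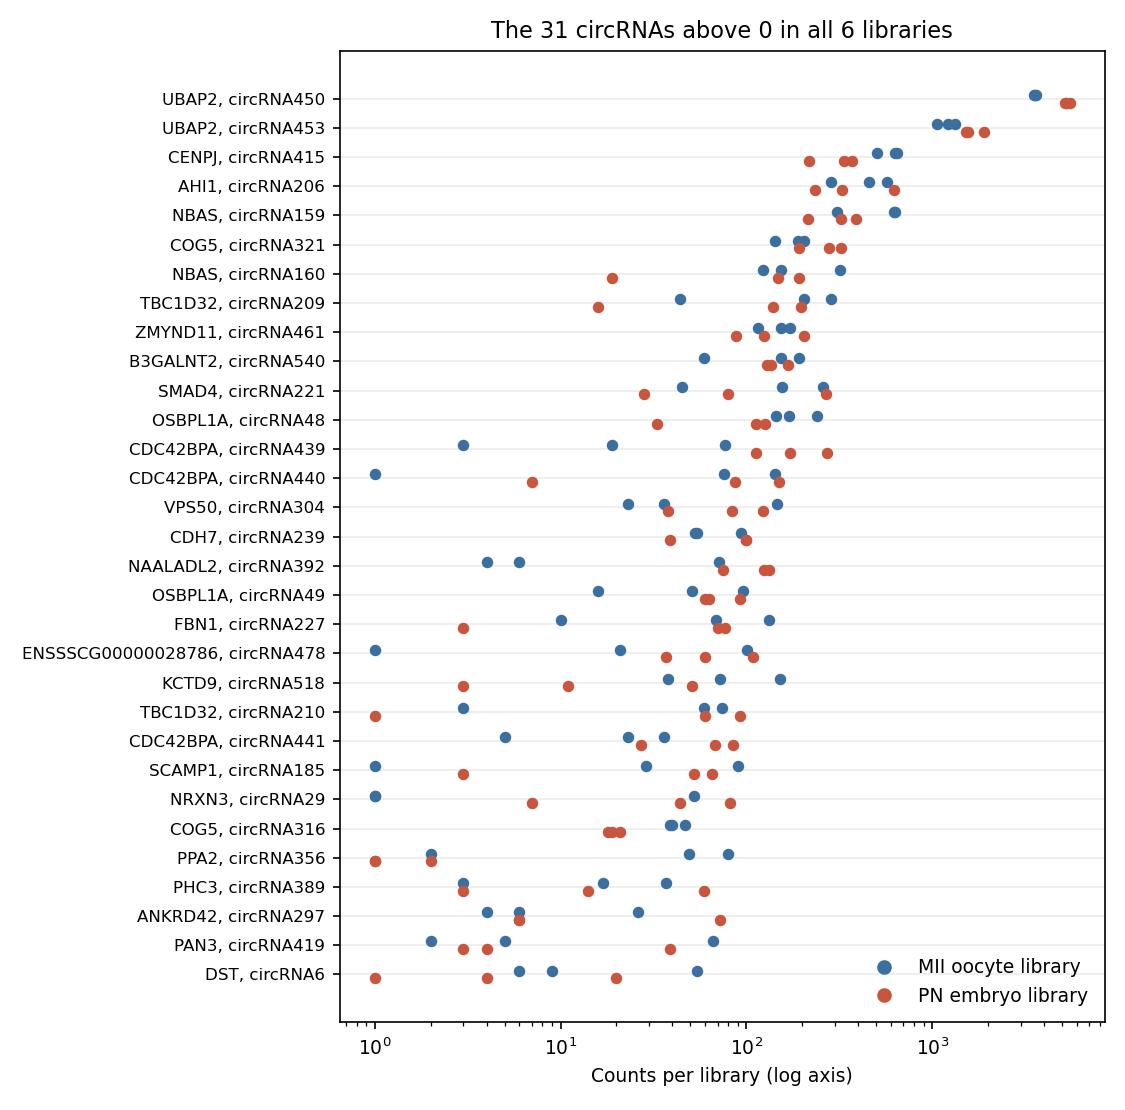
Counts per library (log axis) of the 31 circRNAs found in all 6 libraries, ordered by mean, with MII oocytes and PN embryos in different colours. The 2 UBAP2 circRNAs at the top keep the groups apart, while most circRNAs with a lower mean overlap between the groups.

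Detection in every library of one group and in none of the other was rare for circRNAs. Of 74 circRNAs found in all MII oocyte libraries, 31 (41.9%) were found in all PN embryo libraries and 7 were at 0 in all PN embryo libraries, and of 74 found in all PN embryo libraries, 5 were at 0 in all MII oocyte libraries. ERC1, a scaffold of the presynaptic zone and of the cell edge, gave circRNA83 with 80, 97 and 130 counts in MII oocytes and none in PN embryos, at least 33.4-fold lower (adjusted p = 0.235, edgeR). This was the circRNA that passed with DESeq2 (adjusted p = 0.00145). All circRNAs of ERC1 together had 129, 229 and 177 counts and then 12, 7 and 1 (adjusted p = 0.638, edgeR).

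The other lost circRNAs were at lower counts. CircRNA54 of OSBPL1A, an oxysterol-binding protein, had 45, 24 and 39 counts in MII oocytes, at least 11.7-fold lower in PN embryos, while circRNA50 of the same gene had 233, 0 and 167 counts and then 251, 213 and 288. CircRNA333 of SYT14 had 17, 69 and 33 counts and circRNA487 of PTPN4, a tyrosine phosphatase, had 66, 2 and 43. CircRNAs of CNTLN, a centriole linker protein, of ANO4 and of ENSSSCG00000050627 each had fewer than 5 counts in at least 2 of the MII oocyte libraries. Without both libraries numbered 3, 58 circRNAs were lost and 56 gained by the same rule.

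IARS2, the mitochondrial isoleucyl-tRNA synthetase (chromosome 10, 9685641 to 9739816), gave a gained circRNA and others that were higher in MII oocytes. CircRNA433 had 93, 61 and 83 counts in MII oocytes and 2, 0 and 0 in PN embryos, and circRNA434 had 69, 16 and 53 and then 0, 0 and 2. CircRNA1681 had 0 in every MII oocyte library and 21, 74 and 73 counts in PN embryos, at least 17-fold higher. The adjusted p of each was 0.805 or more (edgeR), and their directions held under every alternative that gave a value. The other gained circRNAs came from PLCH1 (73, 46 and 1 counts in PN embryos), STX8 (4, 1 and 2), ENSSSCG00000003314 (101, 2 and 1) and ENSSSCG00000004207 (1, 1 and 27), each with a single count in at least 1 library.

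By host gene, 57 genes had circRNAs in all 6 libraries, 10 had them in every MII oocyte library and no PN embryo library, and 7 the reverse. Without both libraries numbered 3 these numbers were 75, 54 and 43. NUP205, a scaffold nucleoporin, had 145, 130 and 14 counts in MII oocytes and none in PN embryos, at least 30.8-fold lower. NOL4 (35, 45 and 53 counts) and RASA2, a GTPase-activating protein for Ras (23, 37 and 45 counts), were also at 0 in PN embryos. In the other direction, KIAA1841 had 123, 8 and 64 counts and MED13L, a subunit of the Mediator kinase module, 7, 92 and 1 counts in PN embryos. Their adjusted p ranged from 0.531 to 0.638 (edgeR).

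CEP63, a centrosomal protein needed for centriole duplication, was the host gene from the cell cycle list with the smallest p. Its circRNAs had 18, 0 and 4 counts in MII oocytes and 158, 69 and 181 in PN embryos (log2 fold change 4.31, SE 1.91, adjusted p = 0.638, edgeR), and the groups did not overlap. Of the 14 host genes tested from that list (median log2 fold change 0.228), the 22 from the chromatin list (0.734), the 11 from the ubiquitin list (0.137) and the 8 from the decay list (0.0135), none differed at an adjusted p under 0.05, against a median of 0.0314 over all 335 host genes. In the chromatin list, 5 of 22 did not overlap between the groups in unscaled counts, against 11.6% of all tested host genes, and the same 5 per total, against 12.5%. They were PHC3, a Polycomb protein (43, 43 and 50 counts, then 162, 112 and 56), and MED13L higher, and CHD2, KDM5A and ZMYM4 lower. In the ubiquitin list, the ligase ITCH had 37, 57 and 59 counts and then 0, 0 and 1 (adjusted p = 0.843, edgeR). No host gene of the oocyte list was tested, since each was above 0 in fewer than 3 libraries.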

How the data were processed

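Strand-specific, ribosomal RNA-depleted libraries were deposited as 3 tables. The authors deposited counts for mRNA loci and for circRNAs, and coverage (a signal of mean read depth) for lncRNA transcripts, without normalization. The submitters' processing notes name cutadapt 1.9, TopHat2 2.0.4, HISAT2 2.0.4, StringTie 1.3.4d, edgeR and Sscrofa11.1. Totals of mRNA counts are not numbers of separate reads, and how reads were counted is not given in the sources used here. Counts were tested with edgeR 4.0.16 (quasi-likelihood, TMM, filterByExpr for mRNA, above 0 in at least 3 libraries for circRNAs and host genes), and coverage with limma 3.58.1 on log2(coverage + 1) for transcripts with 3 or more libraries at a coverage of 1 or higher, in R 4.3.3 with Benjamini-Hochberg adjustment over all features. Coverage was not scaled between libraries in the main limma fit, and the fold changes of this fit understate those of low coverages. The thresholds were an absolute log2 fold change of 1 and an adjusted p of 0.05. Scripts were tested on simulated data. Symbols came from the lncRNA and circRNA tables and from Ensembl identifiers, of which 228 of 963 in the mRNA table had a symbol, and positions from RefSeq for Sscrofa11.1. Loci and transcripts past both thresholds were named where they had a symbol or Ensembl identifier, with 2 unnamed ones per direction, and circRNAs were named by detection, level and p. Groups, lists and tests were chosen with earlier results of these data known. Alternatives were DESeq2 1.42.0, other filters, scalings, limits and pseudocounts, a replicate block and libraries left out in turn. Sperm and the authors' own comparisons were not used in any fit.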

Additional observations from a re-analysis of the deposited data

How the results depend on the processing

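Between PN embryos and MII oocytes, 46 mRNA loci passed, and the number was 779 with DESeq2, 132 without a filter on low counts, 223 with the adjusted p alone, and between 22 and 89 with 1 library left out. Of the 46, all passed with DESeq2, without a filter and with the total count in place of TMM. Leaving out both libraries numbered 3 gave 8, and testing only loci at 1 CPM or more in all 6 libraries or with a mean of at least 20 CPM gave 112 and 73 (594 and 658 at an adjusted p under 0.05). These 3 alternatives were chosen after seeing the data. For lncRNAs, where 12 passed, the number was 7 with a pseudocount of 0.1, 122 without a filter on low coverage, 21 with the adjusted p alone, 2 without both libraries numbered 3, and between 1 and 13 with 1 library left out. The fewest, 1 and 2, were left without MII oocyte replicate 1 and 2. For circRNAs, 1 passed with DESeq2, and for host genes, 1 with the adjusted p alone. With 1 library left out, 0 circRNAs and 0 host genes passed both thresholds. Nothing in the labels says that replicate numbers mark a shared source, and same-numbered libraries correlated by 0.012, 0.00628 and 0.0564 in their deviations for mRNA and by 0.019, 0.00677 and 0.0631 for lncRNA. The pair numbered 3 was the highest of 9 pairs in both, while replicates 1 did not correlate best with each other. For circRNAs the same-numbered libraries correlated by -0.083, 0.113 and -0.0449. The highest pair there was MII oocyte replicate 1 with PN embryo replicate 3 (0.137). A replicate block gave 112 mRNA loci (46 of them those above), 16 lncRNAs and 0 circRNAs and host genes.

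At any value above 0, 18041 mRNA loci were kept, 437 lost and 247 gained, and 444 lncRNA transcripts were lost and 252 gained. At a limit of 5, 0 mRNA loci were lost and 0 gained, 4189 lncRNA transcripts were kept, 96 lost and 35 gained, and 17 circRNAs were kept, 3 lost and 1 gained. Without both libraries numbered 3, 326 and 157 mRNA loci, 1675 and 1060 lncRNA transcripts, and 58 and 56 circRNAs were lost and gained. With 1 library left out, between 47 and 175 mRNA loci were lost and between 13 and 70 gained, between 466 and 1088 lncRNA transcripts were lost and between 210 and 635 gained, and between 10 and 47 circRNAs were lost and between 7 and 40 gained. Fewer libraries make these rules easier to meet. Host genes lost and gained numbered 54 and 43 without both libraries numbered 3, 6 and 2 at a limit of 5, and between 13 and 39 and between 9 and 32 with 1 library left out. Of the 37 mRNA loci, 10 lncRNA transcripts, 8 circRNAs and 1 host gene refitted one by one, 0 changed sign, and 4 of 37 mRNA loci and 1 of 10 lncRNA transcripts had an adjusted p under 0.05 under every alternative (3 and 1 of them also at least 2-fold in each).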
